A study of Mus musculus with 18 samples.

Results

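Bone morphogenetic protein (BMP) signalling was followed through 10 genes in mouse cumulus cells, the somatic cells that surround the oocyte: the ligand gene Bmp2, the receptor genes Bmpr1a, Bmpr1b and Bmpr2, the pathway inhibitor genes Smad6 and Bambi, and the target genes Id1, Id2, Id3 and Id4. The genes were taken by name, and each probe set whose annotation gives exactly 1 gene symbol from this list was kept. This left 23 of 45101 probe sets and 10 of the 18193 genes that had a probe set with a single symbol. Id1, Id3, Smad6, Bambi and Bmp2 each had 1 probe set, Id2, Id4, Bmpr1b and Bmpr2 each had 3, and Bmpr1a had 6. Where a gene had several, the one that was brightest on average over the 18 arrays stood for the gene. All 10 genes lay above the array's median probe set on at least 3 of the 18 arrays and so entered the tests, which covered 12246 genes.

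The study asked how estrogen and oocytes act together on the transcriptome of cumulus cells from antral follicles of female mice. RNA was amplified in a pair of rounds and hybridised to 18 expression arrays, 3 for each of 6 cultured groups, and the deposited values are on the log2 scale. The groups were complexes without their oocyte that were cultured together with oocytes (OOX + oocytes, here cocultures), complexes without their oocyte cultured alone (OOX, here oocyte-free), and intact cumulus-oocyte complexes (COC), each with estrogen (E2) and without it. Strain, age, estrogen dose and culture time are not given in the sources used here, and no label says that replicates stem from different animals or cultures, so p-values measure only the spread between these samples. One oocyte-free sample (replicate 1 with estrogen) is titled as treated with E2 while its other labels name no estrogen. The title was followed, and this array correlated at 0.980 and 0.970 with the other oocyte-free arrays with estrogen, against 0.923 to 0.948 with those without.

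BMP ligands bind a complex of type I receptors (such as BMPR1A and BMPR1B) and type II receptors (such as BMPR2), whose kinases phosphorylate SMAD1, SMAD5 and SMAD9. These enter the nucleus with SMAD4 and switch on target genes, of which the Id genes are the best known. ID proteins have a helix-loop-helix domain but no DNA-binding region and block E proteins by pairing with them, while SMAD6 and the pseudoreceptor BAMBI, themselves induced by the pathway, feed back to restrain it. In the follicle, the oocyte secretes GDF9 and BMP15, which both use BMPR2, and female mice without Bmpr1b are infertile with defects in cumulus cells.

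Array medians ran from 5.51 to 5.71, and no arrays held identical values. Oocyte-free replicate 3 without estrogen stood apart: its interquartile range was 2.54, against 2.70 to 3.06 on the others, and its highest correlation with its own group was 0.944. Of 8 measured cumulus markers, 6 lay above the array median on all arrays. Their mean level differed with the oocyte: it was 8.88 to 9.24 in cocultures, 7.35 to 7.78 in oocyte-free complexes and 8.92 to 9.03 in intact complexes without estrogen, and 9.45 to 9.73, 8.08 to 8.54 and 9.62 to 9.83 in the same order of groups with estrogen. The 7 measured endothelial and blood markers averaged 4.35 to 4.83, below the array medians. In these bulk samples, fewer cells of a type and less RNA per cell cannot be told apart. The array names carry a series number, and the 3 series hold 13, 2 and 3 arrays. All intact complexes lie in the first, and the oocyte-free complexes without estrogen lie in the other two, so no series holds both groups of the removal comparison without estrogen. With array series as a term, that comparison gave 3.25 log2 for Bmp2 and 3.29 for Id1. The series offsets against intact complexes in that fit rest on coculture replicate 2 without estrogen and oocyte-free replicate 3 with estrogen. The fit assumes the same offset in every group, so it cannot separate series from oocyte removal without estrogen.

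Because the Id genes are direct targets of the SMADs in other settings, the 250 bases before the transcript start were read for 7 genes (RefSeq windows, GRCm38.p6). No window was at hand for Id1 and Bmp2, and Bambi was left out of this reading. The windows were searched on both strands for GGCGCC, a GC-rich element of BMP SMADs, and for the SMAD-binding element CAGAC or GTCTG. The estrogen response element core GGTCA or TGACC was searched too. The windows of Id2, Id3 and Id4 are shown, with the matches in capitals, because Id3 and Id4 moved in opposite directions with estrogen where oocytes were present, while Id2 was not called there.
Id2 (chr12:25096093-25096342, minus strand): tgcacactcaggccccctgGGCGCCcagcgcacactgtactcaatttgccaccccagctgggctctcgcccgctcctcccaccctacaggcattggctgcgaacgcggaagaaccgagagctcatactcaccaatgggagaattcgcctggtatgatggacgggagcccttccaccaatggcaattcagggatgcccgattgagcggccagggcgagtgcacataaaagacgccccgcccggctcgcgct
Id3 (chr4:136143572-136143821, plus strand): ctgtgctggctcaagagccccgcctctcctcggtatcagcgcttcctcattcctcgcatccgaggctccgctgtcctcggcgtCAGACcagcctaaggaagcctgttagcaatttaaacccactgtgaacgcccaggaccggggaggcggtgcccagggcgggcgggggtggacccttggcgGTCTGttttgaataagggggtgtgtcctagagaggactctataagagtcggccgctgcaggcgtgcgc
Id4 (chr13:48260866-48261115, plus strand): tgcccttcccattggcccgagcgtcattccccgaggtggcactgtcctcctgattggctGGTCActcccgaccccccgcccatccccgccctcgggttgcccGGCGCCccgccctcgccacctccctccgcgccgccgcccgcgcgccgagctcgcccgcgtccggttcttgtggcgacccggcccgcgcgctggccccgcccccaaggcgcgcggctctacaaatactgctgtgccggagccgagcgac
Id2 held 1 GGCGCC at position -231 and Id3 held 2 SMAD-binding elements at -167 and -68, counted from the transcript start. Id4 held 1 GGCGCC at -148 and 1 estrogen element core at -191. Among 32851 RefSeq windows of this length, 9.59% held GGCGCC, 42.2% the SMAD-binding element and 35.2% the estrogen element core. The Smad6 window held none of the 3 motifs, and Bmpr1a and Bmpr2 each held 1 GGCGCC, at -198 and -105. Bmpr1b has 3 windows: the first held a SMAD-binding element at -128, the second a SMAD-binding element at -245 and an estrogen element core at -105, and the third an estrogen element core at -74. None of the motif matches overlapped another.

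**Figure D1:**
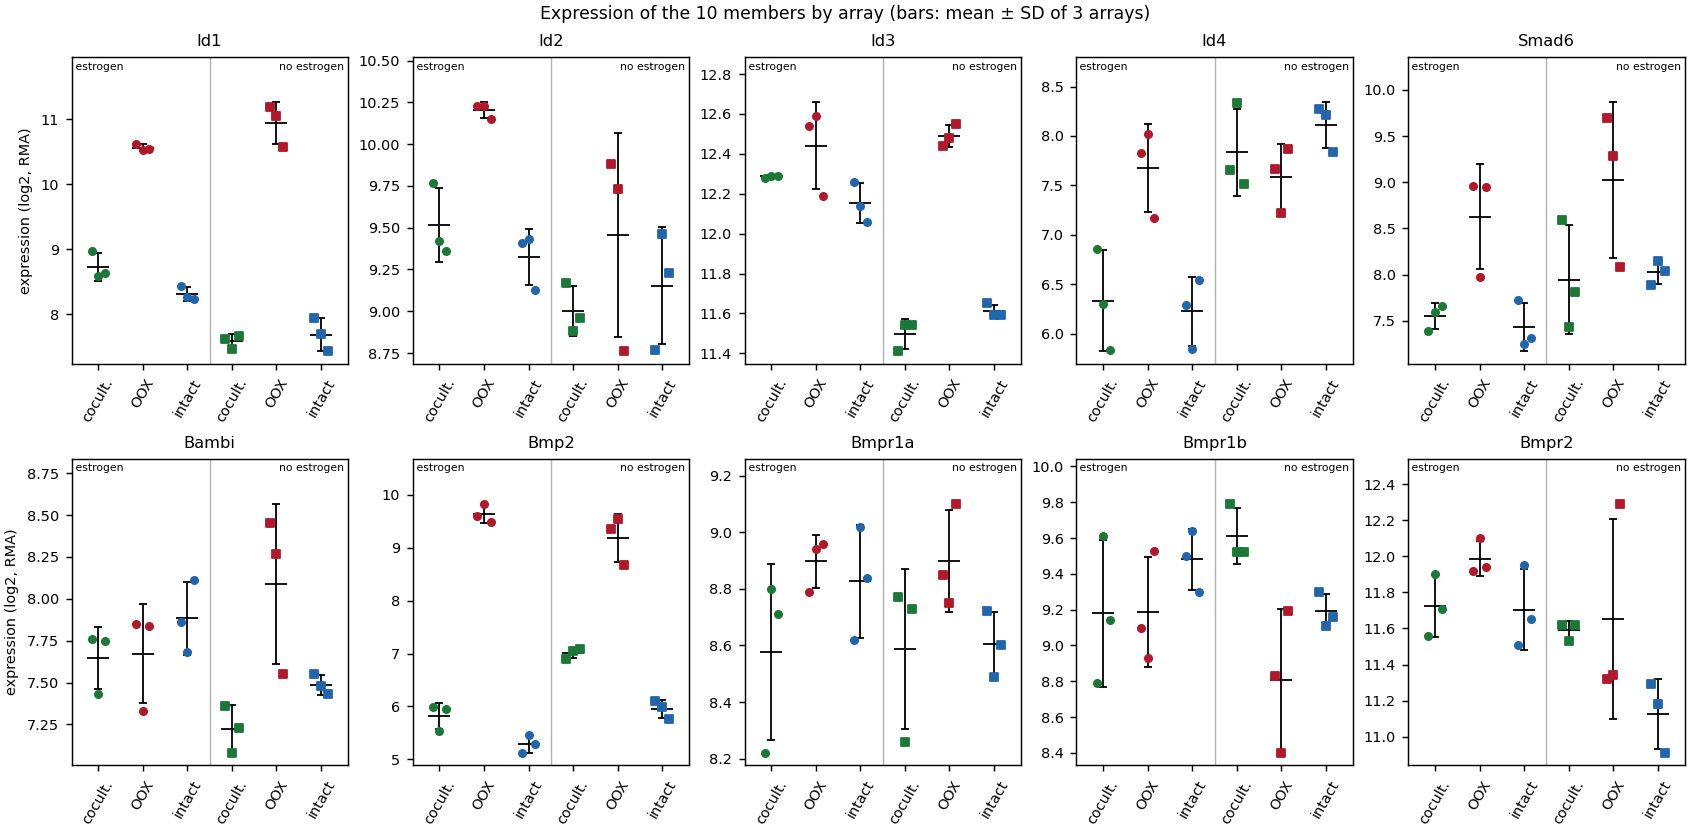
Expression (log2) of the 10 genes on each of the 18 arrays; the left of each panel holds the groups with estrogen and the right those without, each in the order cocultures, oocyte-free (OOX) and intact, with bars for mean ± SD of 3 arrays. Bmp2 and Id1 in oocyte-free complexes lie above all arrays with oocytes, while Bmpr1a lies between 8.22 and 9.10 on all arrays.

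Bmp2, the ligand gene, moved with the oocyte in both estrogen conditions. With estrogen, it measured 5.98, 5.53 and 5.95 in cocultures, 9.60, 9.83 and 9.49 in oocyte-free complexes and 5.12, 5.46 and 5.29 in intact complexes. Without estrogen, the values were 6.90, 7.05 and 7.08 in cocultures, 9.35, 9.54 and 8.67 in oocyte-free complexes and 6.10, 5.99 and 5.76 in intact complexes. The oocyte-free arrays lay above all others, with no overlap. Oocyte removal raised Bmp2 by 4.35 ± 0.20 log2 (SE; 20.4-fold, adjusted p = 8.37e-11) with estrogen and by 3.24 ± 0.20 (9.43-fold, adjusted p = 1.6e-09) without. Adding oocytes lowered it 14.1-fold with estrogen (adjusted p = 4.15e-10) and 4.52-fold without (adjusted p = 2.17e-07). The 3 intact arrays with estrogen were below the median of all probe sets, so the fold against them is set near the dim end of the scale. Within the array series that hold both groups, the removal effect with estrogen was 4.43 (2 against 3 arrays), and the effect of added oocytes was -3.90 with estrogen (3 against 2) and -1.62 without (1 against 1).

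By their brightest probe sets, the 3 receptor genes gave 1 call, for Bmpr1b, over the comparisons of groups. Bmpr1a, a type I receptor, ran from 8.58 ± 0.31 (SD, n = 3) in cocultures with estrogen up to 8.90 ± 0.18 in oocyte-free complexes without it. None of its changes was called by limma. The 95% interval of the removal effect was -0.30 to 0.44 log2 with estrogen and -0.08 to 0.67 without. Its dimmer probe sets correlated at -0.378 to 0.677 with the brightest over the 18 arrays. Under the alternatives over all arrays, the Bmpr1a removal effect without estrogen ran from 0.002 to 0.495, with no call. Bmpr2, the type II receptor, measured 11.32, 11.34 and 12.29 in oocyte-free complexes without estrogen, against 11.29, 11.18 and 10.91 in intact ones. Its highest value there is the array that stood apart, and the difference of 0.52 (0.08 to 0.97) missed the threshold (adjusted p = 0.0586). Without that array, oocyte-free replicate 3, the Bmpr2 difference was 0.20 (adjusted p = 0.326), and without oocyte-free replicate 1 or 2 it was 0.69 (adjusted p = 0.0241) or 0.68 (adjusted p = 0.0285). Bmpr2 probe set 1419616_at had the opposite sign, at 9.28 ± 0.54 in oocyte-free and 9.76 ± 0.09 in intact complexes without estrogen (SD, n = 3 each; difference -0.48, adjusted p = 0.335).

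Bmpr1b, the receptor whose loss affects cumulus cells in mice, depended on the probe set. Its brightest probe set, 1437312_at, was called only for added oocytes without estrogen, where it measured 9.79, 9.52 and 9.52 in cocultures and 8.83, 8.40 and 9.19 in oocyte-free complexes. The difference was 0.80 ± 0.22 (adjusted p = 0.0089), and 0.60 (adjusted p = 0.0567) without oocyte-free replicate 2. Probe set 1443720_s_at showed a wider gap without estrogen, with 7.75, 7.53 and 7.57 in cocultures, 6.15, 6.14 and 5.86 in oocyte-free and 7.80, 7.75 and 7.95 in intact complexes. In a fit over all single probe sets, oocyte removal lowered it by 1.78 ± 0.21 log2 (adjusted p = 1.59e-05) and added oocytes raised it by 1.57 (adjusted p = 7.26e-05). The share of all probe sets called was 19.9% for removal and 16.7% for added oocytes. The third probe set, 1422872_at, fell by 1.27 ± 0.21 with removal (adjusted p = 0.00046), though not with array series as a term (-0.70, adjusted p = 0.111). With estrogen, 1443720_s_at measured 7.74, 7.74 and 6.86 in oocyte-free and 8.07, 8.29 and 8.19 in intact complexes. The fall of 0.74 (adjusted p = 0.0257, background 14.7%) lost its call without oocyte-free replicate 3 (-0.44, adjusted p = 0.122) and without intact replicate 2 (-0.68, adjusted p = 0.0842) or 3 (-0.73, adjusted p = 0.0729), and with array series as a term (-0.56, adjusted p = 0.0701). Averaged over its probe sets, Bmpr1b was lower after oocyte removal with estrogen (-0.58, adjusted p = 0.0094) and without (-1.15, adjusted p = 2.41e-05). Over 18 arrays, the other Bmpr1b probe sets correlated at 0.481 and 0.550 with the brightest.

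**Figure D2:**
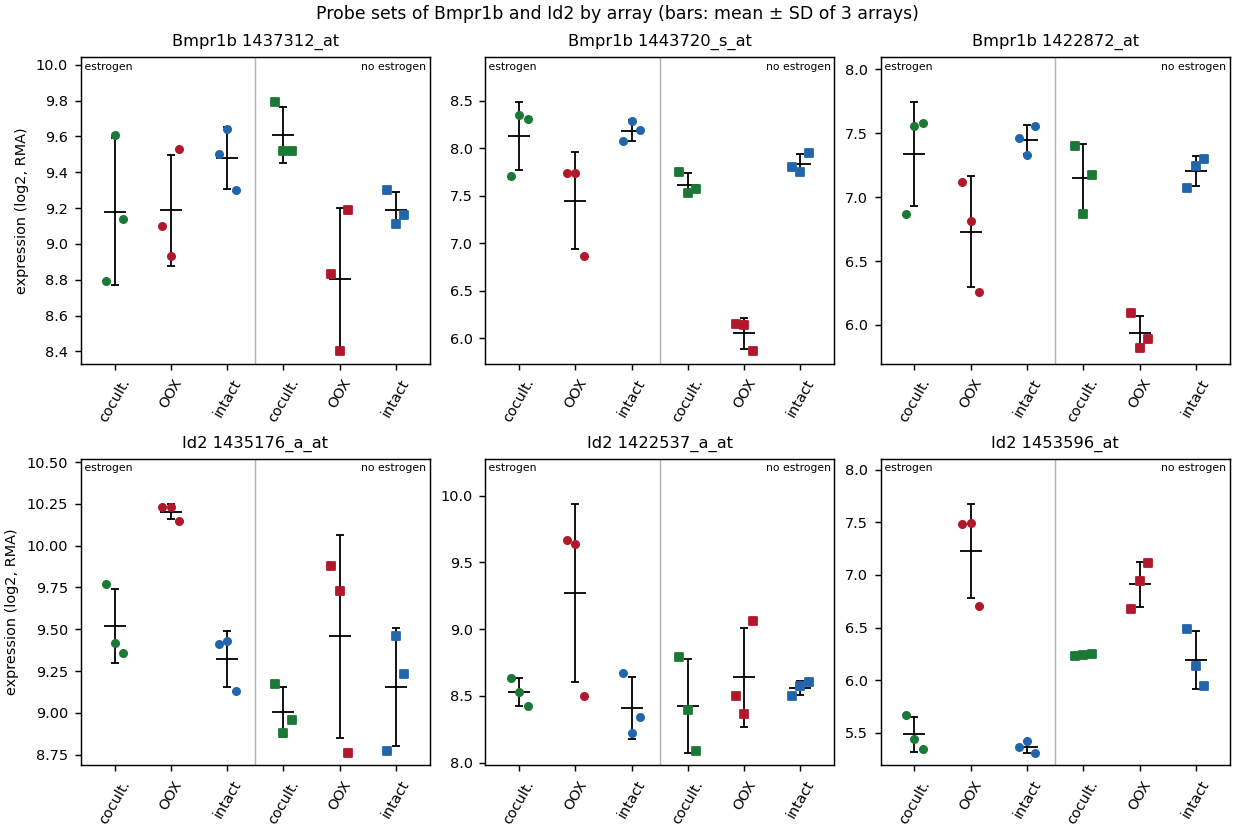
Expression (log2) of the 3 probe sets of Bmpr1b and the 3 of Id2 on each array, in the groups with estrogen (left) and without (right), with bars for mean ± SD of 3 arrays. Probe set 1443720_s_at of Bmpr1b lies at 5.86 to 6.15 in oocyte-free complexes without estrogen, and 1453596_at of Id2 lies highest in oocyte-free complexes.

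The inhibitor genes varied more between arrays. Smad6, an inhibitory SMAD, measured 8.96, 7.97 and 8.95 in oocyte-free complexes with estrogen, against 7.73, 7.25 and 7.31 in intact ones, and 9.70, 9.29 and 8.08 against 7.89, 8.15 and 8.04 without estrogen. Removal raised Smad6 by 1.20 ± 0.35 (adjusted p = 0.0157) with estrogen and by 1.00 ± 0.35 (adjusted p = 0.0335) without, and added oocytes lowered it by 1.08 in each condition (adjusted p = 0.0339 with and 0.026 without estrogen). All 4 calls ended when single arrays were left out. Without oocyte-free replicate 1, the effect of removal without estrogen was 0.66 (adjusted p = 0.171), and leaving out oocyte-free replicate 2 or any intact replicate gave 0.86 to 1.06 (adjusted p from 0.0554 to 0.109). With estrogen, leaving out oocyte-free replicate 1 or 3 or intact replicate 2 or 3 gave 1.03 to 1.14 (adjusted p from 0.053 to 0.0674). For added oocytes, the values without single arrays were -1.01 to -0.74 without estrogen (oocyte-free replicates 1 and 2, coculture replicates 2 and 3; adjusted p to 0.136) and -1.13 to -0.91 with it (oocyte-free replicates 1 and 3, each coculture; adjusted p to 0.126). Bambi, a decoy receptor, measured 8.45, 8.27 and 7.55 in oocyte-free complexes without estrogen and 7.55, 7.48 and 7.43 in intact ones. The difference of 0.60 ± 0.21 (adjusted p = 0.0285) was 0.47 (adjusted p = 0.153) with array series as a term, and 0.42 to 0.635 (adjusted p from 0.0516 to 0.14) without oocyte-free replicate 1 or 2 or any intact replicate. With estrogen, Bambi was 7.67 ± 0.30 in oocyte-free complexes against 7.88 ± 0.22 in intact ones (SD, n = 3 each; difference -0.21, adjusted p = 0.499), and the removal effects of the 2 conditions differed by -0.81 (adjusted p = 0.17). Added oocytes without estrogen lowered Bambi by 0.87 ± 0.21 (adjusted p = 0.00364).

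Id1, the classical early target of BMP SMADs, rose with oocyte removal and fell with added oocytes, as Bmp2 did. With estrogen, Id1 measured 8.98, 8.59 and 8.63 in cocultures, 10.62, 10.52 and 10.54 in oocyte-free complexes and 8.43, 8.27 and 8.23 in intact ones. Without estrogen, the values were 7.62, 7.46 and 7.67, then 11.19, 11.05 and 10.58, then 7.94, 7.69 and 7.43, in the same order. The oocyte-free arrays lay above all others in each condition, while cocultures and intact complexes overlapped without estrogen. Oocyte removal raised Id1 by 2.25 ± 0.17 (4.76-fold, adjusted p = 2.79e-08) with estrogen and by 3.25 ± 0.17 (9.54-fold, adjusted p = 2.27e-10) without. Id3 measured 11.41, 11.54 and 11.54 in cocultures, 12.44, 12.48 and 12.55 in oocyte-free complexes and 11.65, 11.59 and 11.59 in intact ones without estrogen. Removal raised Id3 by 0.88 ± 0.13 (1.84-fold, adjusted p = 2.85e-05), and added oocytes lowered it by 0.99 (adjusted p = 9.95e-06). With estrogen, Id3 averaged 12.29 ± 0.01 in cocultures, 12.44 ± 0.22 in oocyte-free and 12.15 ± 0.10 in intact complexes (SD, n = 3 each). The removal effect was then 0.29 (adjusted p = 0.0967), and 0.41 (adjusted p = 0.0229) without oocyte-free replicate 3. The removal effects with and without estrogen differed by -0.59 ± 0.18 (adjusted p = 0.0845).

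Id2 and Id4 were called for oocyte removal with estrogen and not without. The difference between the conditions passed the test for Id4 and not for Id2 (0.58 ± 0.34, adjusted p = 0.493). Id2, another inhibitor of E proteins, measured 9.77, 9.42 and 9.36 in cocultures, 10.23, 10.23 and 10.15 in oocyte-free and 9.41, 9.43 and 9.13 in intact complexes with estrogen. Removal raised it by 0.88 ± 0.24 (adjusted p = 0.00904), and added oocytes lowered it by 0.69 (adjusted p = 0.0433). That call was lost (adjusted p from 0.0502 to 0.144, values from -0.71 to -0.61) without any 1 of 10 arrays, the oocyte-free replicates, coculture replicates 2 and 3 and the intact replicates with estrogen, and intact and coculture replicate 3 without it. Without estrogen, Id2 measured 9.88, 9.73 and 8.76 in oocyte-free and 8.77, 9.46 and 9.23 in intact complexes (0.30, adjusted p = 0.339). The low oocyte-free value is the array that stood apart. Without it the removal effect was 0.65 (adjusted p = 0.0108) and that of added oocytes -0.80 (adjusted p = 0.00322). Probe set 1453596_at of Id2 rose by 1.86 ± 0.19 (adjusted p = 4.51e-06) after removal with estrogen. Its intact arrays with estrogen read 5.31 to 5.42, below their array medians. Without estrogen this probe set rose by 0.72 (adjusted p = 0.0127), though by 0.595 (adjusted p = 0.0649) without intact replicate 3. The brighter 1422537_a_at overlapped between oocyte-free and intact complexes in each condition. It measured 9.27 ± 0.67 against 8.41 ± 0.23 with estrogen, and 8.64 ± 0.37 against 8.56 ± 0.05 without (SD, n = 3 each). Id4 measured 6.86, 6.30 and 5.84 in cocultures, 7.83, 8.02 and 7.17 in oocyte-free and 6.29, 5.85 and 6.54 in intact complexes with estrogen. Removal raised Id4 by 1.45 ± 0.29 (2.73-fold, adjusted p = 0.000902), and added oocytes lowered it by 1.34 (adjusted p = 0.00218). Without estrogen the removal difference was -0.52 (-1.13 to 0.09, adjusted p = 0.169), with 7.67, 7.22 and 7.87 in oocyte-free and 8.27, 8.21 and 7.84 in intact complexes. Its dimmer probe sets, 1423259_at and 1450928_at, differed in sign there. They measured 5.46 ± 1.60 against 6.99 ± 0.84 and 5.04 ± 0.57 against 4.83 ± 0.83 (SD, n = 3 each). With estrogen both were higher in oocyte-free complexes, at 6.84 ± 0.78 against 4.91 ± 0.84 and 5.29 ± 0.35 against 4.09 ± 0.225. Theca and stroma markers (5 of 9 tested) moved with removal too. With estrogen 3 of the 5 rose and 0 fell (median 1.02), where 30.2% of all tested genes were called. The mean level of all 9, including those too dim to be tested, was 6.49 to 6.61 in oocyte-free against 5.74 to 5.82 in intact complexes. Without estrogen 1 of the 5 rose and 3 fell (median -1.22), where 38.7% of all tested genes were called. The mean of all 9 was then 6.43 to 6.84 in oocyte-free against 6.50 to 6.52 in intact complexes. With added oocytes, 0 rose and 3 fell with estrogen (median -0.55), and 3 rose and 1 fell without (median 1.52). The share of all tested genes called there was 24.6% with estrogen and 33.2% without. Their part in the Id4 changes was not tested.

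**Figure D3:**
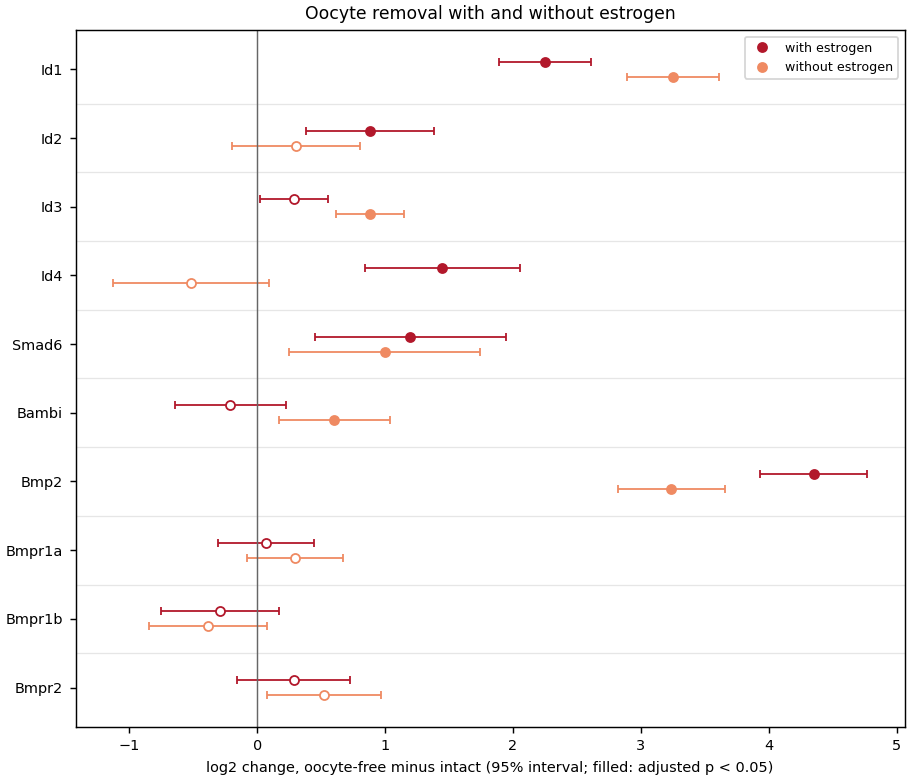
Change of the 10 genes after oocyte removal (log2, oocyte-free minus intact) with estrogen (dark) and without (light), with 95% intervals; filled points passed an adjusted p of 0.05. Bmp2 and Id1 lie furthest right in both conditions, and Id4 lies right of 0 only with estrogen.

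Counted over the 10 genes, 5 rose and 0 fell with oocyte removal with estrogen (30.2% of all tested genes were called, 12.9% higher and 17.3% lower), and 5 rose and 0 fell without it (38.7% called, 18% higher and 20.7% lower). The median change was 0.58 with estrogen, against -0.05 over all genes, and 0.56 without it, against 0.01. Bmp2, Id1 and Smad6 were called in both conditions. Adding oocytes lowered 5 and raised 0 with estrogen (24.6% of all genes called, 10.4% lower and 14.2% higher), and lowered 5 and raised 1, Bmpr1b, without it (33.2% called, 13.4% lower and 19.8% higher; after a second quantile normalization 2144 of 4414 called genes were higher, against 2425 of 4063). Each of these comparisons shares its oocyte-free arrays with the removal comparison of the same condition. The 13 oocyte markers averaged 5.05 to 5.35 in cocultures with estrogen and 5.19 to 5.70 in those without. The means were 4.82 to 4.89 and 4.92 to 5.44 in oocyte-free complexes with and without estrogen, and 5.22 to 5.26 and 5.21 to 5.36 in intact ones. Of the 13, 4 were bright enough to be tested, and 1 of them rose with added oocytes in each condition (median change of the 4, 0.04). The part of these markers and of the cumulus markers in the results was not tested.

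Cocultures and intact complexes, which both hold oocytes, gave 0 calls among the 10 genes by limma with estrogen and 0 without. The share of all tested genes called was 0% with and 0.00817% without estrogen, and 2 of the 10 had an unadjusted p under 0.05 in each condition. Array weights gave 1 call in each condition, and array series as a term gave 1 without estrogen. In each of these the gene was Bmp2, named after its values were seen. Without estrogen, Bmp2 differed by 1.06 ± 0.20 (2.09-fold, 95% interval 0.64 to 1.48, adjusted p = 0.196), with all cocultures above all intact complexes. Leaving out oocyte-free replicate 3, which is in neither group but enters the shared spread, gave an adjusted p of 0.0136. With estrogen the Bmp2 difference was 0.53 (0.11 to 0.95, adjusted p = 1), and with the replicate number as a block 0 of the 10 genes and 1 of all tested genes were called.

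Estrogen raised Id1 and Id3 and lowered Id4 in intact complexes and in cocultures, and lowered Bmp2 in cocultures. In intact complexes, 3 of the 10 changed (2 higher, 1 lower), against 5.78% of all tested genes (3.45% higher, 2.34% lower). After a second quantile normalization, 379 of 774 called genes were higher, against 422 of 708. Id4 fell by 1.88 ± 0.29 (3.68-fold, adjusted p = 0.00045), while Id1 rose by 0.62 ± 0.17 (adjusted p = 0.0385) and Id3 by 0.54 (adjusted p = 0.0137). The Id1 call was lost after a second quantile normalization (0.51, adjusted p = 0.0574), and without intact replicate 2 or 3 without estrogen, any intact replicate with it or coculture replicate 3 with it (0.495 to 0.66, adjusted p from 0.0506 to 0.18). The Id3 call was lost without intact replicate 3 without estrogen (0.53, adjusted p = 0.0529) or intact replicate 1 with it (0.49, adjusted p = 0.0716). Bmp2 fell short of the threshold at -0.66 (adjusted p = 0.0607), and passed without oocyte-free replicate 3 (adjusted p = 0.0118) or 2 (adjusted p = 0.0445). It also passed with the mean of probe sets (adjusted p = 0.0483), a second quantile normalization (0.0309) and array weights (0.00203). The same held with array series as a term (adjusted p = 0.0306) and in a fit of only the groups compared (0.0198). In cocultures, 4 of the 10 changed (2 higher, 2 lower), against 4.65% of all tested genes (2.32% higher, 2.34% lower). Id1 rose by 1.15 ± 0.17 (2.22-fold, adjusted p = 0.000325), Id3 rose by 0.79 (adjusted p = 0.000664), Id4 fell by 1.50 ± 0.29 (2.83-fold, adjusted p = 0.00351) and Bmp2 fell by 1.19 ± 0.20 (2.28-fold, adjusted p = 0.00104). Within the first array series, the same 4 changes in cocultures (3 against 2 arrays) were 1.09, 0.81, -1.25 and -1.17. Theca and stroma markers moved with estrogen too. Their mean was 5.86 to 5.94 in cocultures with estrogen against 6.49 to 6.78 without, and 5.74 to 5.82 in intact complexes with estrogen against 6.50 to 6.52 without. Their part in these changes was not tested.

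**Figure D4:**
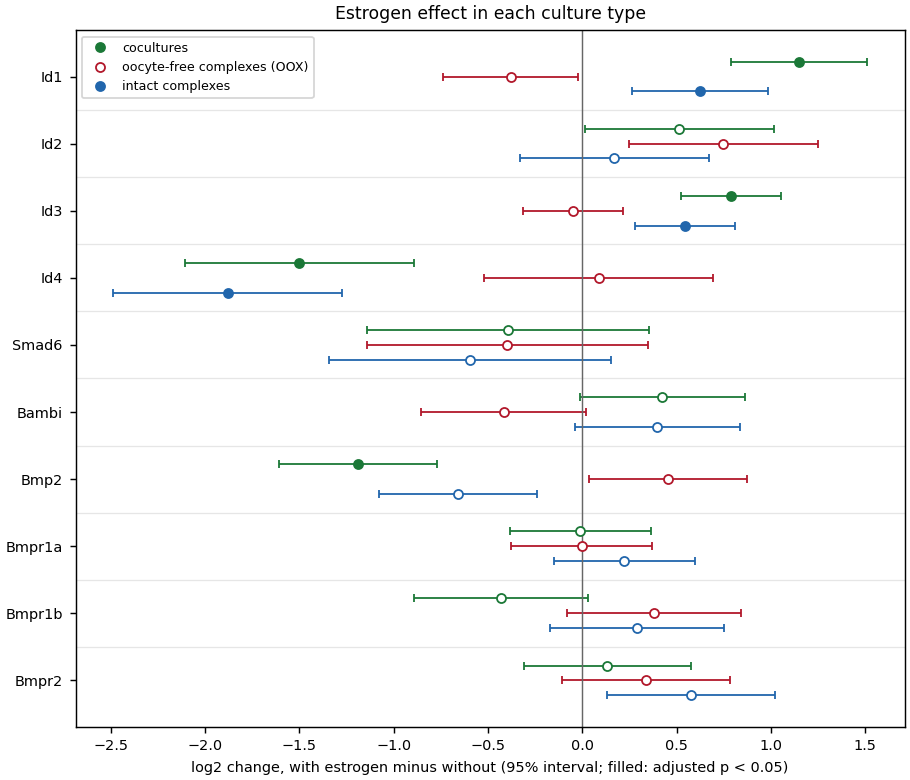
Change of the 10 genes with estrogen (log2, estrogen minus no estrogen) in cocultures, oocyte-free complexes and intact complexes, with 95% intervals; filled points passed an adjusted p of 0.05. Id4 lies left of 0 where oocytes are present, and no gene is filled in oocyte-free complexes.

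In oocyte-free complexes estrogen gave 0 calls among the 10 genes by limma, with 3 at an unadjusted p under 0.05, against 9.64% of all tested genes called (6.03% higher, 3.62% lower). Array weights gave 3 calls and the mean of probe sets gave 3. Only 1 oocyte-free array with estrogen and 2 without share an array series. Within that series the estrogen change was 0.045 for Bmp2 and -0.58 for Id1, against 0.45 and -0.38 over all arrays. Without oocyte-free replicate 3, the Id1 change of -0.38 (adjusted p = 0.167) became -0.56 (adjusted p = 0.0323), that of Bambi became -0.69 (adjusted p = 0.0211) and that of Bmpr2 0.66 (adjusted p = 0.0133). Id2 changed by 0.75 (adjusted p = 0.0564), and passed without oocyte-free replicate 1 (0.96, adjusted p = 0.0231) or intact replicate 1 without estrogen (adjusted p = 0.0492). Probe set 1443720_s_at of Bmpr1b rose by 1.40 with estrogen (adjusted p = 0.00125), with 7.74, 7.74 and 6.86 with estrogen against 6.15, 6.14 and 5.86 without, where 4.27% of all probe sets were called. Bmpr2 probe set 1419616_at measured 10.95, 10.95 and 9.72 with estrogen against 9.31, 8.73 and 9.81 without, which overlap. Its rise of 1.26 (adjusted p = 0.0357) lost its call after a second quantile normalization (adjusted p = 0.0729), with array series as a term (adjusted p = 0.0945) or the replicate block (adjusted p = 0.0563), and without oocyte-free replicate 1 or 2 of either condition (0.98 to 1.27, adjusted p from 0.0516 to 0.171).

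Whether the oocyte altered the estrogen effect was tested as the difference of 2 changes. Between oocyte-free and intact complexes, 3 of the 10 genes passed (3.21% of all tested genes, 1.79% higher and 1.42% lower): Id4 at 1.97 ± 0.41 (adjusted p = 0.00986), Bmp2 at 1.11 ± 0.28 (adjusted p = 0.0353) and Id1 at -1.003 ± 0.24 (adjusted p = 0.0263). Between cocultures and oocyte-free complexes, 4 passed (2.78%, 0.89% higher and 1.89% lower): Id1 at 1.53 ± 0.24 (adjusted p = 0.00139), Bmp2 at -1.64 ± 0.28 (adjusted p = 0.00272), Id3 at 0.84 ± 0.18 (adjusted p = 0.0124) and Id4 at -1.59 ± 0.41 (adjusted p = 0.0436). Both differences share the oocyte-free arrays, which lie mostly in different array series with and without estrogen. The estrogen change was higher for Id1, and lower for Bmp2 and Id4, where oocytes were present than where they were absent. Of the 5 tested theca and stroma markers, 3 were called higher and 0 lower between oocyte-free and intact complexes (median 1.34), and 0 higher and 3 lower between cocultures and oocyte-free complexes (median -1.46). Their part in these differences was not tested. The Id4 value between cocultures and oocyte-free complexes lost its call with no filter on dim genes (adjusted p = 0.0615), after a second quantile normalization (-1.49, adjusted p = 0.0792) and without any 1 of 13 arrays (-1.67 to -1.34, adjusted p from 0.0512 to 0.129): each intact replicate without estrogen, intact replicates 1 and 3 with it, oocyte-free replicates 1 and 2 in each condition, coculture replicates 1 and 2 without estrogen and 2 and 3 with it. The Bmp2 value between oocyte-free and intact complexes lost it without intact replicate 1 or 2 without estrogen, intact replicate 1 or 3 with it, or oocyte-free replicate 1 or 2 with it (1.02 to 1.13, adjusted p from 0.0682 to 0.0993), and the Id1 value without intact replicate 2 or 3 without estrogen, intact replicate 1 or 2 with it, or oocyte-free replicate 1 or 2 in either condition (-1.03 to -0.875, adjusted p from 0.0515 to 0.084). Without oocyte-free replicate 3, Bambi also passed, at -1.08 (adjusted p = 0.015) against intact complexes and 1.11 (adjusted p = 0.014) for cocultures.

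The rest of the pathway was read from lists of its other genes. Each count stands against the 30.2% of all tested genes called for oocyte removal with estrogen (12.9% higher, 17.3% lower; median -0.05) and the 38.7% called without it (18% higher, 20.7% lower; median 0.01). Of 6 tested BMP ligands (15 listed, 12 measured), 1 fell with oocyte removal in each condition and the median was -0.10 with estrogen and -0.01 without. That gene was Bmp6, a ligand of granulosa cells and oocytes, which measured 7.56, 6.65 and 7.45 in oocyte-free and 8.01, 7.65 and 8.30 in intact complexes with estrogen. Without estrogen the values were 5.44, 5.39 and 5.78 in oocyte-free and 7.55, 8.20 and 7.84 in intact complexes. Bmp6 fell by 2.33 ± 0.28 (5.02-fold, adjusted p = 5.23e-06) without estrogen, the opposite direction to Bmp2. With estrogen its fall of 0.77 (adjusted p = 0.0496) lost its call without any 1 of 12 arrays (adjusted p from 0.0505 to 0.235): intact replicates 1 and 3, coculture replicates 1 and 2 and oocyte-free replicates 2 and 3 with estrogen, and intact and coculture replicates 1 and 3 and oocyte-free replicates 1 and 2 without it. The fall was 0.48 without oocyte-free replicate 2 with estrogen. Of 8 tested antagonists (15 listed, 14 measured), 2 rose and 3 fell with removal with estrogen (median -0.50), and 1 rose and 4 fell without (median -0.54). Fst, which encodes the activin and BMP binding protein follistatin, measured 10.08, 9.43 and 9.14 in oocyte-free and 12.71, 12.92 and 12.95 in intact complexes without estrogen, a fall of 3.31 ± 0.21 (9.92-fold, adjusted p = 2.01e-09). Grem1, which encodes the antagonist gremlin, fell 6.57-fold with estrogen (adjusted p = 2.21e-07) and 3.57-fold without (adjusted p = 1.56e-05). Bmper, in the same list, was higher after removal with estrogen. It measured 7.98, 7.11 and 8.41 in oocyte-free against 6.45, 6.89 and 6.37 in intact complexes. Without estrogen its values overlapped, at 8.85, 8.78 and 8.39 against 8.24, 8.78 and 8.55.

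**Figure D5:**
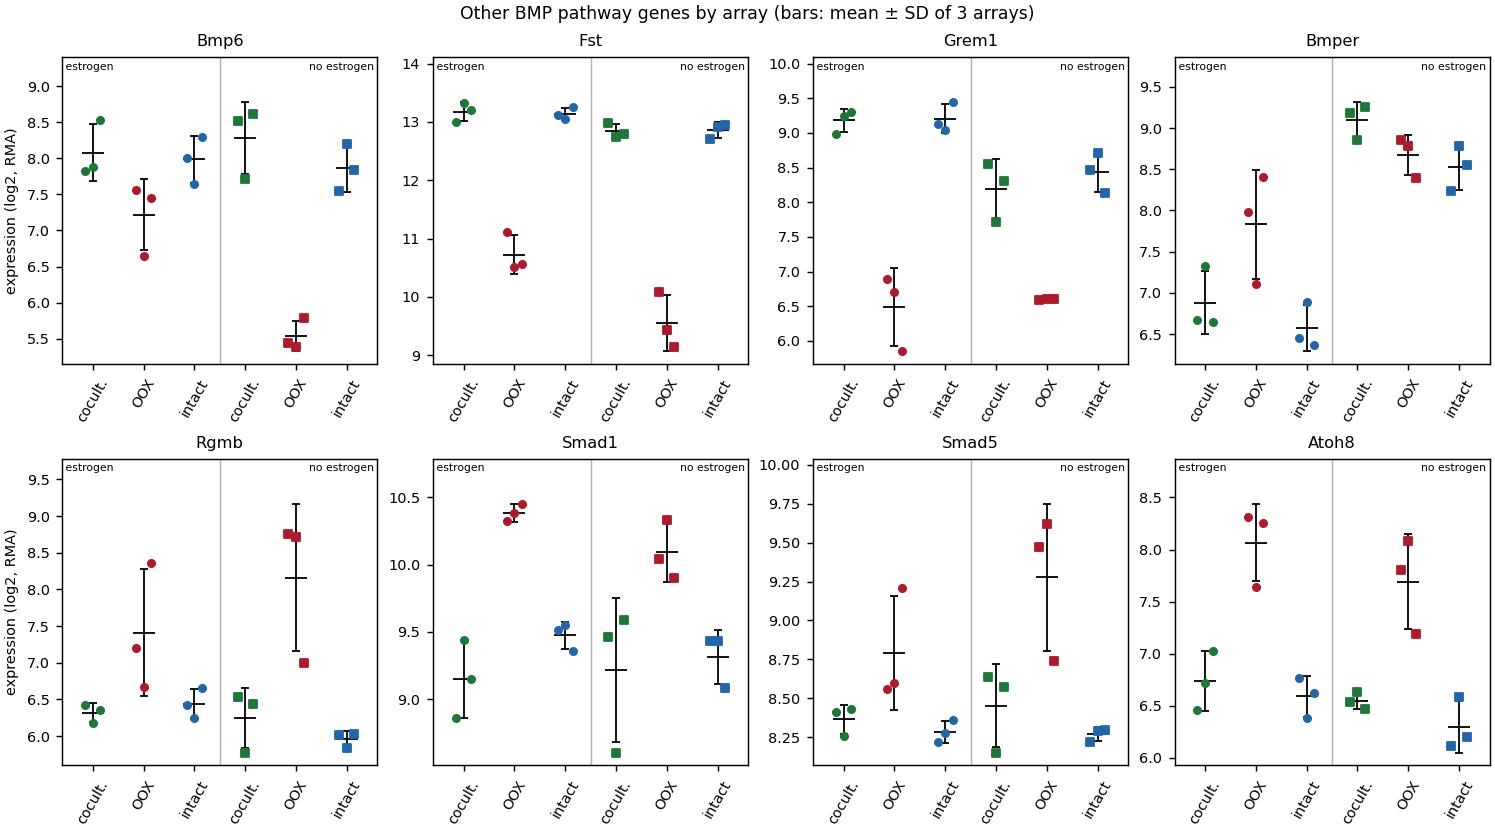
Expression (log2) of 8 other BMP pathway genes on each array, in the groups with estrogen (left) and without (right), each in the order cocultures, oocyte-free and intact, with bars for mean ± SD of 3 arrays. Bmp6, Fst and Grem1 are lowest in oocyte-free complexes, and Rgmb, Smad1 and Atoh8 are highest there.

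Of 8 tested other receptors (10 listed), 2 rose and 1 fell with removal with estrogen (30.2% of all tested genes called; median 0.16 in the list), and 4 rose and 1 fell without (38.7% called; median 0.34). Rgmb, a BMP coreceptor, rose by 2.20 ± 0.41 without estrogen (4.60-fold, adjusted p = 0.000349), with 8.76, 8.72 and 7.00 in oocyte-free against 6.01, 5.84 and 6.03 in intact complexes. The list of SMADs and their regulators held Smad1, Smad4, Smad5, Smad9, the inhibitory Smad7, Smurf1, Smurf2, Ski and Skil. Of these 9 genes, 4 rose and 0 fell after removal with estrogen (12.9% of all tested genes higher, list median 0.50). Without estrogen 4 rose and 1 fell (18% higher, 20.7% lower, list median -0.02). Smad1, which carries the signal into the nucleus, rose by 0.91 (adjusted p = 0.00394) with estrogen and by 0.78 (adjusted p = 0.00889) without. Smad5 rose by 1.01 (adjusted p = 0.00106) without estrogen, and by 0.28 (adjusted p = 0.169) as the mean of its probe sets. Of 6 tested other targets (10 listed, 9 measured), 1 rose and 0 fell with estrogen, and 1 rose and 1 fell without. Atoh8, a helix-loop-helix gene, rose by 1.48 ± 0.23 (adjusted p = 8.18e-05) with estrogen and by 1.39 ± 0.23 (adjusted p = 0.000111) without. Hey1, in the same list, was lower after removal without estrogen, at 6.93, 6.65 and 7.01 against 7.68, 7.26 and 7.44 in intact complexes. With estrogen its values overlapped, at 6.93, 6.51 and 7.09 against 7.19, 7.24 and 6.89. Of 3 E protein partners, Tcf3, Tcf4 and Tcf12, 0 were called by limma in any comparison, with at most 1 at an unadjusted p under 0.05 in any one and at most 1 called under any alternative setting. Estrogen lowered Bmper, a BMP-binding regulator, by 1.95 ± 0.28 (3.87-fold, adjusted p = 0.000184) in intact complexes and by 2.22 (4.66-fold, adjusted p = 5.6e-05) in cocultures. For the 6 lists, with 3 to 9 tested genes each, estrogen called 0 to 2 genes per list in each of the 3 culture types. The share of all tested genes called by estrogen was 5.78% in intact complexes, 9.64% in oocyte-free complexes and 4.65% in cocultures.

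The genes most like Bmp2 over the 18 arrays were Nab2 (Pearson r = 0.981), Fgd5 (0.976), Pik3ip1 (0.975), Ddit4l (0.974) and D430019H16Rik (0.974). Those most like Id1 were Apoe (0.981), Angpt2 (0.971), Me2 (0.970), Trp53i11 (0.967) and Nrp2 (0.967). These values are a description over arrays that share 6 groups.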

How the data were processed

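The deposited values are log2 expression. Per the submitters' processing notes, the tools were RMA and Affymetrix Expression Console 1.1; RMA corrects background, normalizes by quantiles and summarizes probes to probe sets, and the deposited values have 2 decimals. No source used here names a genome build (not given in the sources used here).

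Of 45101 probe sets, 64 controls were set aside, and 34945 of the others had 1 symbol, 932 several and 9160 none. Of those with 1 symbol, 34741 took the RefSeq symbol of their Entrez identifier, whether or not it differed. Groups came from the sample titles. A model of 6 group means was fitted to all 18 arrays with limma 3.58.1 in R 4.3.3 (two-sided, Benjamini-Hochberg adjustment over 12246 genes, called at adjusted p under 0.05; tested on simulated data), and again over 45037 single probe sets. Replicate numbers are rounds of the title numbers. Same-numbered arrays were checked for correlated deviations from their group means: r ran from -0.327 to 0.422 over 45 pairs, and all 3 pairs exceeded 0.1 in 3 of 15 pairs of groups. Of these, cocultures and intact complexes with estrogen (0.1645 to 0.309) are a comparison made here, so there the fit with the replicate number as a block is given too. Over all pairs the median r was -0.004 for same-numbered arrays and -0.0006 for arrays of other numbers. No label says whether the numbers mark a pairing. Precision is limited by how many arrays each group has.

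The 10 genes and the pathway and marker lists were chosen with earlier results of these data known. Named pathway genes are among the called genes of each list with the largest change, at most 4 per list and comparison. Genes like Bmp2 and Id1 are the 5 with the highest Pearson r. Alternatives were the mean of probe sets, no filter, a second quantile normalization, array weights, an intensity trend, array series as a term, the replicate number as a block, only the groups compared, and each array left out.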

Additional observations from a re-analysis of the deposited data

Results flagged for a closer look

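A set of 7 tests of whether the oocyte altered the effect of estrogen passed the threshold, each an interaction term of the limma model. Between oocyte-free and intact complexes, the estrogen effect differed by -1.003 log2 for Id1, by 1.97 for Id4 and by 1.11 for Bmp2. Between cocultures and oocyte-free complexes, it differed by 1.53 for Id1, by 0.84 for Id3, by -1.59 for Id4 and by -1.64 for Bmp2. All 7 rest on the same 6 oocyte-free arrays, mostly in different array series with and without estrogen, and are not independent of each other. Of these, the Id4 value between cocultures and oocyte-free complexes, and both the Id1 and Bmp2 values between oocyte-free and intact complexes, lost their call when some single arrays were left out. The Id4 value also lost it with no filter (adjusted p = 0.0615) and after a second quantile normalization (adjusted p = 0.0792), and the Bmp2 value with array series as a term (adjusted p = 0.0599).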

How the results depend on the processing

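Of 35 calls among 110 results (10 genes in 11 comparisons), alternatives over all arrays ended 12 and made 44 new calls, and leaving out single arrays ended 69 and made 16, counted once per setting; 0 changed direction. Calls among the 10 genes moved as follows. Oocyte removal without estrogen (5 calls) gave 8 with array weights and 3 in a fit of only the groups compared, where Smad6 (adjusted p = 0.0752) and Bambi (adjusted p = 0.0926) were lost, and 3 to 6 with single arrays left out. Added oocytes with estrogen (5) gave 3 to 5 with arrays left out. Cocultures against intact complexes (0) gave 1 with array weights in each condition, and without estrogen 1 with array series as a term and 0 to 1 with arrays left out. Estrogen in intact complexes (3) gave 6 with array weights, 5 with array series and 6 in a fit of only the groups compared, and 1 to 5 with arrays left out. Estrogen in oocyte-free complexes (0) gave 3 with the mean of probe sets, 3 with array weights, and 0 to 3 with arrays left out. The difference of estrogen effects between oocyte-free and intact complexes (3) gave 5 with the mean of probe sets and 5 with array weights, and 1 to 4 with arrays left out. Smad6 with array series as a term was 0.91 (adjusted p = 0.0676) for removal and -0.72 (adjusted p = 0.0964) for added oocytes without estrogen, and Bmp2 lost the difference of estrogen effects between oocyte-free and intact complexes (1.06, adjusted p = 0.0599). With no filter, calls were lost by Id2 for added oocytes with estrogen (adjusted p = 0.057) and by Id4 for the difference of estrogen effects between cocultures and oocyte-free complexes (adjusted p = 0.0615), which a second quantile normalization also ended (adjusted p = 0.0792). The remaining losses were of Id1 for estrogen in intact complexes (second quantile normalization, adjusted p = 0.0574; intensity trend, adjusted p = 0.0543), of Smad6 for added oocytes without estrogen in a fit of only the groups compared (adjusted p = 0.104) and of Bambi for removal without estrogen with array series as a term (adjusted p = 0.153). Over the named pathway genes, 34 of 72 calls held under all alternatives, and over the other probe sets of the 10 genes 6 of 17 did. Over all genes, array weights raised the count called by estrogen to 2214, against 708, in intact complexes, to 2679, against 1181, in oocyte-free ones and to 1930, against 570, in cocultures. Array series as a term gave 1207 in intact and 620 in oocyte-free complexes, and 3122, against 4743, for removal without estrogen. A fit of only the groups compared gave 1422 in intact and 209 in oocyte-free complexes. Array weights also gave 153, against 1, and 93, against 0, for cocultures against intact complexes without and with estrogen, and 1321, against 393, and 1557, against 341, for the differences of estrogen effects between oocyte-free and intact complexes and between cocultures and oocyte-free ones. Leaving out single arrays gave 382 to 471 in intact (3 arrays), 526 and 777 in oocyte-free and 373 in cocultures for estrogen, and for the differences of estrogen effects 689, against 393, between oocyte-free and intact complexes (without oocyte-free replicate 3 with estrogen) and 542, against 341, between cocultures and oocyte-free ones (without oocyte-free replicate 3 without estrogen). With the replicate number as a block, the counts of called genes among the 10 were unchanged.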
